A study of Homo sapiens with 8 samples.

Results

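The S100 family of calcium-binding proteins was followed through 10 genes on Affymetrix human expression arrays: S100A2, S100A4, S100A6, S100A8, S100A9, S100A10, S100A11, S100A13, S100A14 and S100P. They were found by gene symbol in the platform's probe table. They are 10 of the 11963 genes named on the array, with 12 probe sets of 22277, 2 each for S100A8 and S100A13 and 1 each for the others. The study behind the arrays asked how the transcription factor GATA6 acts in gastric cancer. There were 8 samples in 4 groups of 2 arrays: Caco-2 control, Caco-2 carrying a short hairpin RNA (shRNA) against GATA6, HUG1N control and HUG1N with the same kind of shRNA. Caco-2 is a human colorectal adenocarcinoma line that takes on enterocyte features in culture, and HUG1N, called HuG-1 in some labels, is a human gastric cancer line. The labels describe infection with the shRNA and puromycin selection for all 8 samples alike, so what the control cells received is not known here. Nor do they say if replicates were grown separately, so the p-values cover the scatter among arrays, possibly a technical one.

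S100 proteins are small cytoplasmic proteins that pair with themselves or with each other and bind calcium through EF-hand loops. On binding calcium most of them expose a surface that grips a partner protein, among them annexins, ezrin and non-muscle myosin. Several are also released from cells and act on receptors such as RAGE (gene AGER) and TLR4. In gut epithelium and its cancers, S100P, S100A4 and S100A6 are widely used as markers of malignant or migratory cells, while S100A8 and S100A9 form calprotectin, the neutrophil protein measured in stool as a sign of bowel inflammation. In the RefSeq gene table of GRCh38.p14, 9 of the 10 genes lie in the family's cluster on chromosome 1, and S100P lies on chromosome 4.

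The stretches just before the start sites are shown because the genes were measured together. In addition, 7 of the 10 genes share a feature that the choice by symbol did not use. RefSeq promoter sequences (GRCh38.p14) were matched for all 10 genes, with 15 start sites. The letters TATAAA or TATAAG were sought on the gene's own strand in the 250 bases before each start site. They began between positions -35 and -25 at 7 start sites, belonging to 7 of the 10 genes, against 3.08% of the 35116 promoters in the table. The last 50 bases before the start site are given 5′ to 3′ on the gene's strand, with these letters in capitals.
S100P: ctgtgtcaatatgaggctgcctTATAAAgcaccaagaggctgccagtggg
S100A9: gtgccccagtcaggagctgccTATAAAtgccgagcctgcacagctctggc
S100A14: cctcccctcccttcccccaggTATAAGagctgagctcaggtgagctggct
S100A4: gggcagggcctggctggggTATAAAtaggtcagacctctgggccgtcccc
S100A6: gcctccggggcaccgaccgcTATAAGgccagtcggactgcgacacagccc
S100A13: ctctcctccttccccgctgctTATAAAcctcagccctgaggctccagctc
S100A8: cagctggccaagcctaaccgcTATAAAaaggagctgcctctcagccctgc
S100A11: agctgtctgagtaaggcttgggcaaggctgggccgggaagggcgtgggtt
S100A10: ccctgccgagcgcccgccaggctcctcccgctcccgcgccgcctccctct

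In these windows the letters start at -28 in S100P, at -29 in S100A8, S100A9, S100A13 and S100A14, at -30 in S100A6 and at -31 in S100A4. The windows lie at chr4:6693828-6693877 (plus strand) for S100P, chr1:153357804-153357853 (plus) for S100A9 and, on the minus strand, chr1:153616326-153616375 for S100A14, chr1:153545807-153545856 for S100A4, chr1:153535992-153536041 for S100A6, chr1:153627506-153627555 for S100A13 and chr1:153391074-153391123 for S100A8. S100A11 (chr1:152037005-152037054, minus) and S100A10 (chr1:151993860-151993909, minus) had no such letters in the whole 250 bases, and neither did the start sites listed for S100A2. The GC content of the 250 bases was 71.2% for S100A10 and 63.6% for S100A11, and it ran from 53.2% (S100A8) to 70.0% (S100A6) at the 7 start sites with the letters.

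Letters that GATA factors are known to recognise were sought on either strand: AGATAA as well as TGATAA, together with AGATAG and also TGATAG. They were found at 1 of the 15 start sites, against 22.3% of all promoters of this length. That site was the outermost start of S100A13, where the letters begin at -194. Its 250 bases (chr1:153634362-153634611, minus strand) are printed on the gene's strand with the match in capitals, where it reads CTATCA because the TGATAG lies on the opposite strand.
S100A13: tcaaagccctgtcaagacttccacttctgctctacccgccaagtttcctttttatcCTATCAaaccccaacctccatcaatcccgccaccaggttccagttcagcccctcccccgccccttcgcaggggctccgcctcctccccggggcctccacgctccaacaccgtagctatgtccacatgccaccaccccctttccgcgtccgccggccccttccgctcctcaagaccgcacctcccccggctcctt
The 250 bases before S100P (chr4:6693628-6693877, plus strand), the gene with the largest change in Caco-2, are printed for comparison, again with TATAAA in capitals.
S100P: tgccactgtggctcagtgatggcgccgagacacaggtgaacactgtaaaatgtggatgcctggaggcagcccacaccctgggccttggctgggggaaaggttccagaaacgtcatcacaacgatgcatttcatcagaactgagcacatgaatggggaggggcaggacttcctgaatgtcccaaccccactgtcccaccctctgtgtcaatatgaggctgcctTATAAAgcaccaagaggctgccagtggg
A match is a description of the letters and not of binding, and sites farther away were not searched.

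Values are the authors' log2 expression values, normalized with GCRMA, in which 1 unit is a 2-fold difference. All 8 arrays shared a lowest value of 2.08 and had a highest value between 16.4 and 16.6. A gene was tested if its brightest probe set was over log2 4 in at least 2 arrays, which kept 7696 of 11963 genes and 9 of the 10 S100 genes. The differences were tested with limma across these genes, with Benjamini-Hochberg adjustment, and a gene with an adjusted p under 0.05 is called. GATA6 was 12.63 and 12.45 on the Caco-2 control arrays, 12.23 and 12.02 with the shRNA, 12.54 and 12.45 on the HUG1N controls and 12.26 and 12.22 with the shRNA. It fell by 0.42 in Caco-2 (SE 0.10, limma adjusted p = 0.0224) and was not called in HUG1N (-0.25, SE 0.10, limma adjusted p = 0.0879). The Caco-2 call of GATA6 was lost without control replicate 1 (-0.32, limma adjusted p = 0.114) or shRNA replicate 2 (-0.31, limma adjusted p = 0.0964), and also with no filter on low values (limma adjusted p = 0.0562) or with Caco-2 fitted alone (limma adjusted p = 0.0590). All 7 epithelial markers exceeded log2 4 in every group. Of 9 intestinal markers 8 did so on at least 1 array of Caco-2 control and 5 of HUG1N control. Of 8 gastric markers with a probe set 3 and 6 did. Each line also carried markers of the other tissue. LGALS4 (intestinal) was 14.25 and 14.18 in HUG1N control, and TFF1 (gastric) was 11.24 and 11.25 in Caco-2 control. LGALS4 in Caco-2 control (3.71 and 4.97) and FABP1 in HUG1N control (3.86 and 4.71) each counted on 1 array. Among the intestinal markers, CDX1 was at 4.5344 on every Caco-2 array, possibly a background level. The gap between the 3′ and 5′ probe sets of ACTB, which widens as RNA is degraded, was 1.92 in Caco-2 control and 1.55 in shRNA arrays, and 2.51 and 3.73 in HUG1N. The hybridisation controls, RNAs added to every array, were at 12.75 in HUG1N control and 10.90 in HUG1N shRNA arrays, against 12.54 and 12.40 in Caco-2.

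**Figure D1:**
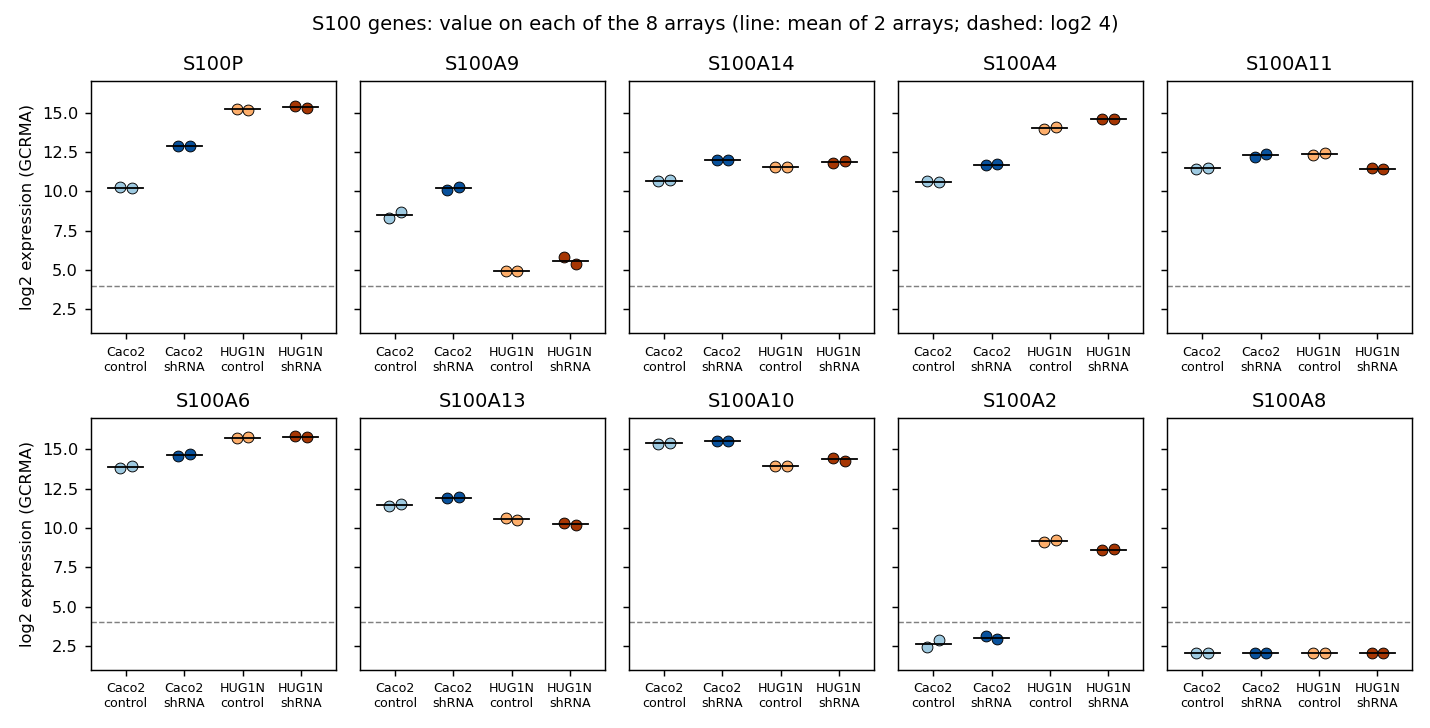
Log2 expression of the 10 S100 genes (brightest probe set) on each of the 8 arrays, by group; points are arrays, solid lines group means of 2 arrays, and the dashed line marks log2 4. S100P climbs from 10.2 in Caco-2 control to above 15 in HUG1N, S100A2 exceeds the dashed line in HUG1N alone, and S100A8 lies at the lowest value of 2.08 throughout.

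With the GATA6 shRNA in Caco-2, 7 of the 9 tested S100 genes rose and 0 fell, while 38.7% of all tested genes were called, 19.5% higher and 19.2% lower. S100P, S100A9, S100A14 and S100A4 rose by over 1 log2 unit, and S100A11, S100A6 and S100A13 by less. S100A10 and S100A2 were not called. The median difference of the 9 was 0.85 on the log2 scale, against -0.003 over all tested genes. The 9 were those bright enough to be tested, 1 of them only through HUG1N. The members were chosen with earlier results of these data known, so the count and the median describe these genes only.

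S100P, a ligand of RAGE and partner of ezrin first found in placenta, had the largest rise. It was 10.25 and 10.21 in control and 12.90 and 12.86 in shRNA arrays. The shRNA arrays were far above the controls, and the arrays of a group lay close to each other. The rise was 2.65 log2 units (SE 0.07, limma adjusted p = 3.64e-06), or 6.27-fold (95% interval 5.59 to 7.04), and it ranked 79 among the rises of the 7696 genes.

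S100A9, the larger subunit of calprotectin, was 8.31 and 8.70 in control and 10.06 and 10.30 in shRNA arrays. The groups did not overlap, although its control arrays lay farther apart than those of the other called members. The rise was 1.67 (SE 0.19, limma adjusted p = 0.00124), or 3.19-fold (95% interval 2.31 to 4.42). Its calprotectin partner S100A8 did not rise with it: both of its probe sets lay at 2.08 in every array of the series.

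S100A14, a family member of epithelial cells, was 10.63 and 10.73 in control and 11.99 and 12.01 in shRNA arrays, a rise of 1.32 (SE 0.08, limma adjusted p = 9.98e-05). S100A4, also called metastasin, binds non-muscle myosin and is linked to cell migration. It was 10.63 and 10.59 in control and 11.64 and 11.73 in shRNA arrays, a rise of 1.08 (SE 0.07, limma adjusted p = 1.62e-04). In neither gene did the groups overlap, and the folds were 2.50 (95% interval 2.19 to 2.86) and 2.11 (1.87 to 2.39).

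S100A11, a partner of annexin A1, was 11.42 and 11.48 in control and 12.21 and 12.38 in shRNA arrays, a rise of 0.85 (SE 0.09, limma adjusted p = 9.03e-04). The gene table lists 10 pseudogenes of S100A11, so its value is uncertain as to the copy. S100A6, or calcyclin, was 13.78 and 13.92 in control and 14.60 and 14.67 in shRNA arrays, a rise of 0.78 (SE 0.08, limma adjusted p = 8.60e-04). S100A13, which takes part in the release of FGF1 and IL-1α by stressed cells, was 11.42 and 11.52 against 11.90 and 11.95, a rise of 0.45 (SE 0.08, limma adjusted p = 0.00574). Its other probe set did not exceed 2.20 in any array. S100A10, the calcium-independent partner of annexin A2, was 15.36 and 15.42 in control and 15.53 and 15.50 in shRNA arrays. Its groups did not overlap, but the difference of 0.13 (95% interval -0.08 to 0.33) did not pass the test (limma adjusted p = 0.289). These values of S100A10 are near the highest of the arrays (16.4 to 16.6), and the part of this in the small difference was not tested.

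Other values moved in the same Caco-2 arrays, and their part in the S100 differences was not tested. The ACTB gap was 1.55 in shRNA against 1.92 in control. The marker counts below stand beside 38.7% of all tested genes called in Caco-2, 19.5% higher and 19.2% lower. Of the 7 epithelial markers 4 rose and 0 fell, with a median difference of 1.20: KRT8 (1.58), KRT19 (1.56), CLDN4 (1.49) and KRT18 (1.20). EPCAM (-0.06), CDH1 (-0.17) and CLDN7 (-0.05) were not called. Their summed log2 level was 90.3 to 90.7 in control and 95.9 to 96.2 in shRNA arrays. Of 8 tested intestinal markers 5 fell and 0 rose (median -0.63), and their summed level went from 78.9 to 79.7 down to 73.0 to 73.2. LGALS4, 1 of those that fell (-1.79), was 3.71 and 4.97 in control and 2.19 and 2.90 in shRNA arrays. Its fall was thus read near or under log2 4. Of 6 tested gastric markers 2 fell, TFF2 (-4.22) and TFF1 (-3.20), and the sum was 38.9 to 39.0 in control and 30.7 to 31.4 in shRNA arrays. Of 12 fibroblast markers 3 were tested and 2 were called higher, lumican (LUM, under log2 4 in both controls) and FBLN1. LUM exceeded log2 4 in the Caco-2 shRNA arrays alone (7.45 and 7.62) and was tested only through them. Its place among the 2 follows from that choice. The summed log2 level of the 12, LUM included, was 36.4 in both control and 41.2 to 41.7 in the shRNA arrays. FBLN1 was at 9.32 and 9.31 in control and 10.20 and 10.12 in shRNA arrays, and COL1A1, the other tested one, lay between 3.96 and 4.85 over the 8 arrays. The other 9 did not exceed 2.83, with DCN, FAP and POSTN at 2.08 in every array. Of 14 immune markers with a probe set 2 were tested, of which 1 fell (LYZ). Their summed level was 39.9 to 41.6 in control and 35.7 to 36.9 in shRNA arrays, with PTPRC, ITGAM and CSF1R between 2.08 and 2.10. CD14, the other tested immune marker, exceeded log2 4 in the Caco-2 controls alone (4.85 and 4.37). It was not called (-1.33, limma adjusted p = 0.0527). FCER1G, not tested, was 3.78 and 2.94 in control and 2.19 on both shRNA arrays. Of 6 endothelial markers 1 was tested, PECAM1, which fell by 0.99 (limma adjusted p = 0.0400). In bulk RNA, more cells with a transcript and more transcript in each cell cannot be told apart.

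In HUG1N, 4 of the 9 tested S100 genes rose with the shRNA and 3 fell, while 48.7% of all tested genes were called, 24.7% higher and 23.9% lower. S100A4, S100A10, S100A14 and S100A9 rose, S100A11, S100A2 and S100A13 fell, and S100P and S100A6 were not called. None of the differences reached 1 log2 unit. The median of the 9 was 0.14, against 0 over all tested genes, and their median size was 0.40 against 0.34.

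S100A11 had the largest difference of the family in HUG1N and the steadiest call among those that fell. It was 12.30 and 12.45 in control and 11.45 and 11.42 in shRNA arrays, with no overlap. It fell by 0.95 (SE 0.09, limma adjusted p = 5.37e-04), to 51.9% of its control. S100A4 was 13.97 and 14.07 in control and 14.56 and 14.60 in shRNA arrays, a rise of 0.56 (SE 0.07, limma adjusted p = 0.00153), or 1.47-fold. S100A10 was 13.96 on both control arrays and 14.46 and 14.26 on the shRNA arrays, a rise of 0.40 (SE 0.08, limma adjusted p = 0.0100). S100A14 was 11.52 on both control arrays and 11.79 and 11.95 on the shRNA arrays, a rise of 0.35 (SE 0.08, limma adjusted p = 0.0119). The shRNA arrays of these 3 genes lay above their control arrays.

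S100A9 was at 4.92 on both HUG1N control arrays, not far above the limit of log2 4, and at 5.83 and 5.37 on the shRNA arrays. The control values were identical (4.9229) and may be a background level of its probe set, so S100A9 may not have been measured there. Its rise of 0.68 (SE 0.19, limma adjusted p = 0.0283) was not called without control replicate 1 (0.68, limma adjusted p = 0.0971), control replicate 2 (0.68, limma adjusted p = 0.0960) or shRNA replicate 1 (0.45, limma adjusted p = 0.121). S100A2, a p53-family target of squamous and basal epithelium, was 9.13 and 9.23 in control and 8.57 and 8.69 in shRNA arrays. It fell by 0.55 (SE 0.16, limma adjusted p = 0.0293), with no overlap of the groups. The call of S100A2 was lost whichever HUG1N array was left out: without control replicate 1 (-0.60, limma adjusted p = 0.0773), control replicate 2 (-0.50, 0.117), shRNA replicate 1 (-0.49, 0.119) or shRNA replicate 2 (-0.61, 0.0685). S100A13 was 10.64 and 10.53 in control and 10.29 and 10.21 in shRNA arrays, a difference of -0.33 (SE 0.08, limma adjusted p = 0.0138). The call of S100A13 was lost without control replicate 1 (-0.28, limma adjusted p = 0.0661), without shRNA replicate 2 (-0.29, limma adjusted p = 0.0590) and with the mean of its probe sets (-0.17, limma adjusted p = 0.0579). Without HUG1N control replicate 1 the line had 4 called S100 genes, 3 higher and 1 lower.

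S100P was 15.24 and 15.18 in HUG1N control and 15.40 and 15.30 in shRNA arrays. The difference of 0.14 (95% interval -0.02 to 0.31) was not called (limma adjusted p = 0.134), although both shRNA arrays were above both controls. S100A6 was 15.70 and 15.78 in control and 15.84 and 15.75 in shRNA arrays, so the groups overlapped (0.06, 95% interval -0.14 to 0.26, limma adjusted p = 0.619). These values of 15.2 to 15.8 are near the highest of the arrays (16.4 to 16.6), and the part of this in the small differences was not tested. In HUG1N the ACTB gap was 3.73 in shRNA and 2.51 in control arrays and the hybridisation controls were 10.90 and 12.75, and the part of these in the S100 differences was not tested. The marker counts below stand beside 48.7% of all tested genes called in HUG1N. Of the 7 epithelial markers 5 rose and 0 fell (median 0.47), KRT19 by 1.46, and their sum was 90.4 to 90.9 in control and 93.8 to 93.9 in shRNA arrays. CDH1 (-0.28) and CLDN7 (-0.01) were not called. Of the gastric markers 3 fell and 1 rose, with CLDN18 at -2.71 and PGC at -2.67, and the sum was 62.9 to 63.7 and 57.9 to 58.1. PGC exceeded log2 4 in the HUG1N controls alone (5.74 and 5.61) and was tested only through them. Its place among those that fell follows from that choice, and its -2.67 is a fitted difference against values under log2 4. Of the intestinal markers 1 rose, VIL1 (1.15), and 2 fell, FABP1 (-1.95) and CDX1 (-1.59), and the sum was 53.5 to 54.6 and 51.2 to 52.2. FABP1 was at 3.86 and 4.71 in control and 2.50 and 2.18 in shRNA arrays, so its fall was read near or under log2 4. The fibroblast markers summed to 30.9 to 31.8 in control and 31.2 to 31.7 in shRNA arrays, and the immune markers to 40.0 to 40.1 and 40.5 to 40.7. Among the immune markers LYZ, which fell in Caco-2, rose in HUG1N (0.57, limma adjusted p = 0.0252). It was 12.45 and 12.39 in control and 12.91 and 13.07 in shRNA arrays. CD14, the other tested one, lay at 2.08 on every HUG1N array.

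**Figure D2:**
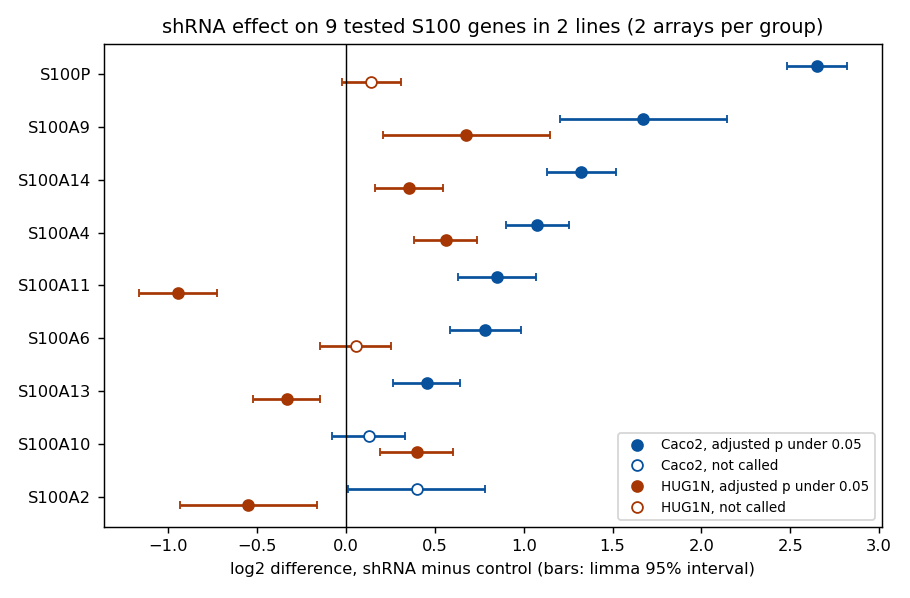
Difference between shRNA and control (log2) of the 9 tested S100 genes in Caco-2 and HUG1N, 2 arrays per group; bars are limma 95% intervals, and open circles did not reach an adjusted p under 0.05. All 7 called differences in Caco-2 lie above 0, from 0.45 (S100A13) to 2.65 (S100P), while in HUG1N 4 lie above 0 and 3 below.

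The shRNA effect differed between the lines for 8 of the 9 tested genes, tested as HUG1N effect minus Caco-2 effect. All 8 differences were negative, while 44.9% of all tested genes were called in this comparison, 22.2% higher and 22.7% lower. The difference was -2.51 for S100P (SE 0.10, limma adjusted p = 3.12e-05) and -1.79 for S100A11 (SE 0.13, limma adjusted p = 2.48e-04). S100A11 and S100A13 were called in opposite directions in the lines: S100A11 rose by 0.85 in Caco-2 and fell by 0.95 in HUG1N, and S100A13 rose by 0.45 and fell by 0.33. S100A4, S100A14 and S100A9 rose in both lines and rose more in Caco-2. Their differences were -0.52 for S100A4 (SE 0.10, limma adjusted p = 0.00874), -0.97 for S100A14 (SE 0.11, limma adjusted p = 0.00132) and -0.996 for S100A9 (SE 0.27, limma adjusted p = 0.0272). S100A10, the neighbour of S100A11 on chromosome 1, was the gene not called (0.27, 95% interval -0.02 to 0.56, limma adjusted p = 0.114).

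Some of these differences rested on single arrays, on low values or on values near the highest of the arrays. That of S100A9 was not called without Caco-2 control replicate 1 (-0.80, limma adjusted p = 0.0774), Caco-2 shRNA replicate 2 (-0.88, 0.0841), HUG1N control replicate 1 (-0.996, 0.0710), HUG1N control replicate 2 (-0.996, 0.0693) or HUG1N shRNA replicate 2 (-0.77, 0.0595). S100A2 was at 2.41 and 2.86 in Caco-2 control and 3.13 and 2.94 in Caco-2 shRNA arrays, all under log2 4, so its called difference of -0.95 (SE 0.22, limma adjusted p = 0.0164) includes a Caco-2 effect read from values near the lowest value. With values under 4 set to 4, S100A2 differed by -0.55. Its call was lost without Caco-2 shRNA replicate 1 (-0.85, limma adjusted p = 0.0546), HUG1N control replicate 2 (-0.90, 0.0514) or HUG1N shRNA replicate 1 (-0.89, 0.0511). With no filter on low values the differences of S100A2 (limma adjusted p = 0.0594) and S100A9 (limma adjusted p = 0.0913) were both lost, which left 6 called. Both HUG1N control values of S100A9 were 4.9229, possibly a background level. The HUG1N values of S100P (15.18 to 15.40) and S100A6 (15.70 to 15.84) were near the highest of the arrays. So were the Caco-2 values of S100A10 (15.36 to 15.53). The part of this in the differences was not tested. S100A10 was called without HUG1N shRNA replicate 2 (0.37, limma adjusted p = 0.0338).

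**Figure D3:**
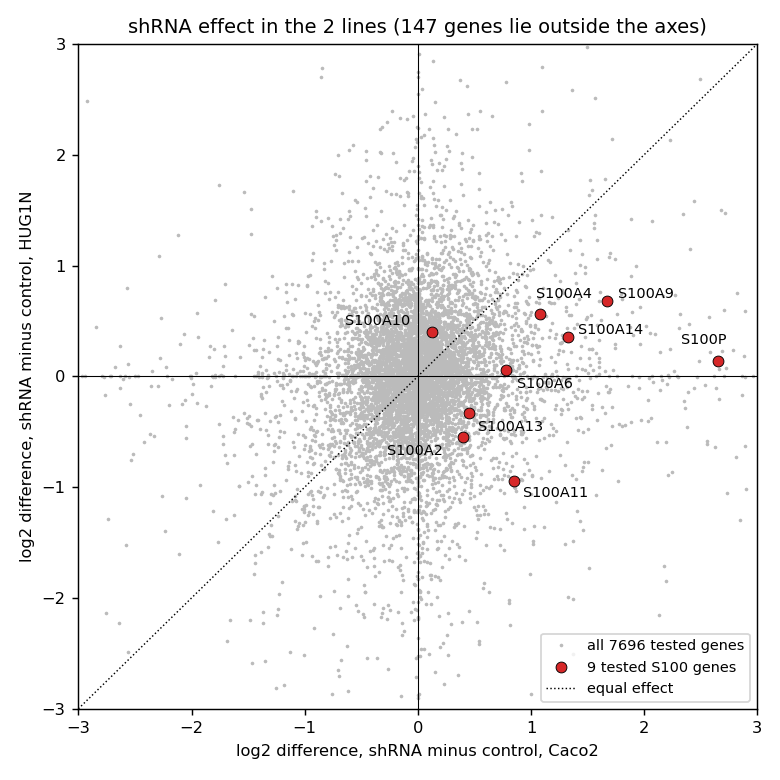
Difference between shRNA and control (log2) in Caco-2 (horizontal) and HUG1N (vertical) for all 7696 tested genes (grey) and the 9 tested S100 genes (red), with 147 genes outside the axes. Apart from S100A10, the S100 genes lie to the right of the dotted line of equal effect, and S100A11, S100A13 and S100A2 lie below 0 in HUG1N.

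Without the shRNA the lines differed in all 9 tested S100 genes, 6 higher in HUG1N and 3 higher in Caco-2, where 78.4% of all tested genes were called, 37.1% higher and 41.3% lower. S100A2 was at 9.18 ± 0.07 in HUG1N control and 2.64 ± 0.32 in Caco-2 control (SD, n = 2 each). With no Caco-2 array over log2 4 this is given as a bound, at least 36.3-fold higher in HUG1N than log2 4. S100A2 was tested only through the HUG1N arrays, so its place among the 6 follows from that choice. S100P was 31.5-fold higher in HUG1N (4.98, SE 0.07, limma adjusted p = 2.51e-08) and S100A4 10.7-fold higher (3.42, SE 0.07, limma adjusted p = 1.56e-07). S100A6 was higher by 1.89 (SE 0.08), S100A11 by 0.93 (SE 0.09) and S100A14 by 0.84 (SE 0.08). S100A9 in HUG1N was at 8.35% of its Caco-2 level (-3.58, SE 0.19, limma adjusted p = 6.58e-06), S100A10 differed by -1.43 (SE 0.08) and S100A13 by -0.89 (SE 0.08). The HUG1N control value of S100A9, 4.9229 on both arrays, may be a background level, so its true share may be lower. The HUG1N control values of S100P (15.24 and 15.18) and S100A6 (15.70 and 15.78) were near the highest of the arrays. So were the Caco-2 control values of S100A10 (15.36 and 15.42). The part of this in the differences between the lines was not tested.

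The order of the groups was not the same for all members. For S100P, S100A4 and S100A6 it ran from Caco-2 control through Caco-2 shRNA to the HUG1N groups, so that the shRNA arrays of Caco-2 lay between its controls and HUG1N. The HUG1N groups were neighbours that overlapped for S100A6 but not for S100P and S100A4. For S100A9 and S100A10 the order was HUG1N control, HUG1N shRNA, Caco-2 control and Caco-2 shRNA, with no overlap of neighbours. For S100A14 the Caco-2 control was lowest and the Caco-2 shRNA highest, the latter only 0.04 above the nearest HUG1N shRNA array. For S100A11 the HUG1N shRNA arrays overlapped the Caco-2 controls, and the HUG1N controls overlapped the Caco-2 shRNA arrays, so the shRNA groups had changed places. For S100A13 the lowest was HUG1N shRNA, followed by HUG1N control, Caco-2 control and Caco-2 shRNA. These comparisons are made within each gene, since levels of different probe sets are not on a common scale.

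Of the 10 other S100 family genes listed, 7 had a probe set and 1 was tested. S100A1, a calcium sensor of heart and muscle, stayed between 5.23 and 5.39 on all 8 arrays and was called in neither line (-0.05 in Caco-2, limma adjusted p = 0.644, and 0.03 in HUG1N, limma adjusted p = 0.733). Its value was the same, 5.2988, on Caco-2 control replicate 2, both Caco-2 shRNA arrays and replicate 1 of both HUG1N groups. This may be a background level of its probe set, so steady expression is not shown. S100A3, S100A5, S100A7, S100A12, S100B and S100G did not exceed log2 4 in 2 arrays. On chromosome 1 the gene table places S100A10 and S100A11 side by side, then S100A9 and S100A8, and farther along S100A6, S100A4, S100A2, S100A14 and S100A13. In HUG1N, neighbours went different ways: S100A10 rose and S100A11 fell, and S100A14 rose while S100A13 fell. In Caco-2 every called gene of the cluster rose. The cluster encloses the epidermal differentiation complex, genes of the cornified skin envelope such as IVL, LORICRIN, FLG and the SPRR genes. Of 43 of these, 14 had a probe set, and 0 were tested in limma because 0 exceeded log2 4 in any array.

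Binding partners and receptors of S100 proteins were on the array for 28 of 30 listed genes, of which 19 were tested. In Caco-2, 9 rose and 4 fell, where 38.7% of all tested genes were called. In HUG1N 4 rose and 7 fell, where 48.7% of all tested genes were called. The medians were 0.16 in Caco-2 and -0.09 in HUG1N, against -0.003 and 0 over all tested genes. The receptor genes AGER, TLR4 and CD36 were under log2 4 on every array, TLR4 and CD36 at the lowest value.

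In Caco-2 the partner ANXA1, an annexin bound by S100A11, was 4.41 and 3.06 in control and 9.55 and 9.90 in shRNA arrays. Its rise of 5.99 (SE 0.41, limma adjusted p = 1.70e-04) has a control group with 1 of 2 arrays over log2 4. GPC1, a cell surface heparan sulfate proteoglycan, rose at least 10.7-fold, from a mean of 2.92 to 7.41, but only 2.01-fold at its second probe set, and by 2.75 on the log2 scale with the mean of both. Tropomyosin TPM1 rose by 1.75 (SE 0.07, limma adjusted p = 1.84e-05) and the growth factor receptor EGFR by 1.42 (SE 0.08, limma adjusted p = 8.57e-05). LCN2, counted among the 4 that fell, was under log2 4 in every Caco-2 array.

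In HUG1N the interleukin gene IL1A, whose protein is released together with S100A13, fell at least 25.7-fold, from 8.72 and 8.65 to 2.81 and 3.81. It exceeded log2 4 in the HUG1N controls alone and was tested only through them, so its place among those that fell follows from that choice. The annexin ANXA6 fell by 1.51 (SE 0.08, limma adjusted p = 9.75e-05) and ANXA5 by 0.66 (SE 0.08, limma adjusted p = 0.00131). MYH9, the non-muscle myosin heavy chain bound by S100A4, fell by 1.27 (SE 0.10, limma adjusted p = 2.67e-04). MYH9 also fell in Caco-2, by 0.73 (limma adjusted p = 0.00243), where S100A4 rose by 1.08.

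Other partners were picked after their values were seen, among those that bind a member directly, so their directions do not stand for the list. ANXA2, the partner of S100A10, rose by 0.37 in Caco-2 (limma adjusted p = 0.0220) and by 0.31 in HUG1N (limma adjusted p = 0.0324), and near-identical pseudogenes may share its signal. AHNAK, a large scaffold protein bound by S100A10 with annexin A2, rose by 0.95 in Caco-2 (limma adjusted p = 0.00152) and by 0.82 in HUG1N (limma adjusted p = 0.00201). IQGAP1, a scaffold of the actin cytoskeleton, rose by 0.48 (limma adjusted p = 0.00263) and by 0.25 (limma adjusted p = 0.0227). Ezrin (EZR), bound by S100P, was not called in either line (0.16, limma adjusted p = 0.0901, and 0.05, limma adjusted p = 0.544). CACYBP, the calcyclin-binding protein of S100A6, was not called either (-0.12, limma adjusted p = 0.198, and -0.18, limma adjusted p = 0.0571). Elsewhere on the list, BSG fell by 0.65 in Caco-2 (limma adjusted p = 0.023) and by 0.78 in HUG1N (limma adjusted p = 0.00877). PPP5C fell by 0.89 in HUG1N (limma adjusted p = 0.0271), and ANXA11 rose by 0.63 in Caco-2 (limma adjusted p = 0.00609).

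**Figure D4:**
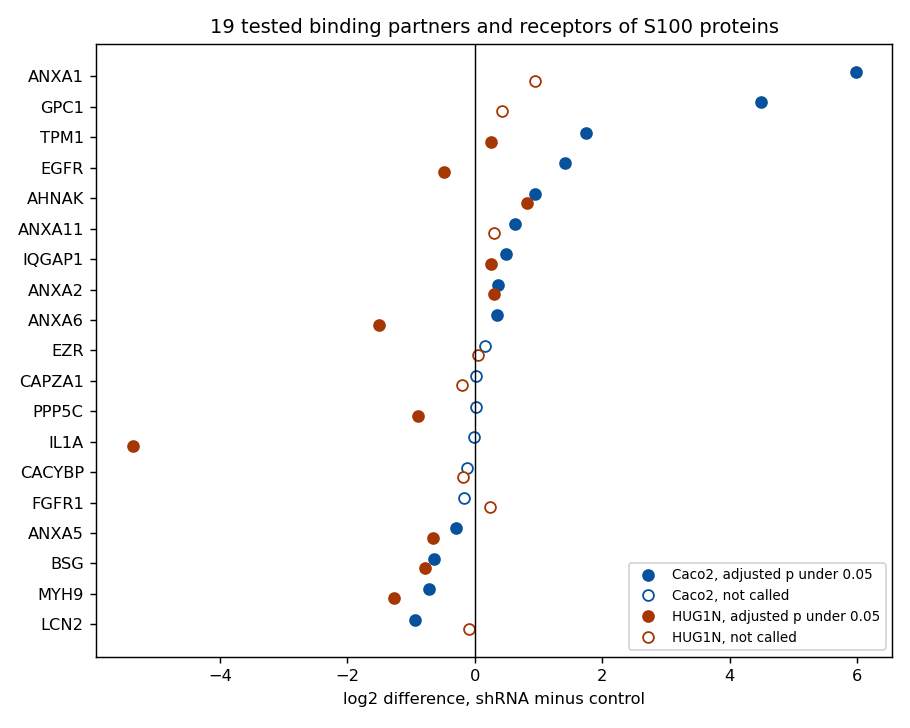
Difference between shRNA and control (log2) of the 19 tested binding partners and receptors in Caco-2 and HUG1N, 2 arrays per group; filled circles have a limma adjusted p under 0.05. ANXA1 (5.99) and GPC1 (4.49) lie farthest right in Caco-2 and IL1A (-5.37) farthest left in HUG1N; the plotted values of GPC1 and IL1A are fitted differences against groups under log2 4.

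Of the other EF-hand genes, 19 were tested, and in Caco-2 5 rose and 2 fell, with a median of 0.15, a share called near the 38.7% of all tested genes. RCN1, a calcium-binding protein of the endoplasmic reticulum, rose by 0.57 (SE 0.06, limma adjusted p = 0.00113), the light chain gene MYL12B rose by 0.46 (SE 0.10, limma adjusted p = 0.0131), NUCB2 fell by 0.89 (SE 0.12, limma adjusted p = 0.00244) and EFHD2 fell by 0.42 (SE 0.07, limma adjusted p = 0.00636). The MYL12B call was lost without Caco-2 control replicate 1 (0.43, limma adjusted p = 0.0708), control replicate 2 (0.49, 0.0538) or shRNA replicate 1 (0.41, 0.0692). In HUG1N 7 rose and 4 fell, with a median of 0.15, where 48.7% of all tested genes were called (24.7% higher and 23.9% lower). The calcium buffer calbindin (CALB1) rose at least 4.43-fold to 6.15, but it exceeded log2 4 in the HUG1N shRNA arrays alone and was tested only through them. CALML4, a calmodulin-like protein of microvilli, rose by 1.05 (SE 0.07, limma adjusted p = 1.77e-04) and the centrin CETN2 by 1.20 (SE 0.10, limma adjusted p = 2.83e-04). Sorcin (SRI) fell by 0.72 at its brightest probe set (SE 0.08, limma adjusted p = 7.86e-04), but its other probe set rose by 0.35 when probe sets were tested singly (limma adjusted p = 0.0352).

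For each tested member the gene outside the 10 with the most similar pattern was taken, by the root mean square difference of log2 values centred on their mean over the 8 arrays. S100P was nearest to GPR137B (0.21), S100A4 to SLC7A11 (0.11), S100A14 to SDC4 (0.09) and S100A6 to CDYL (0.09). S100A11 was nearest to AP1S1 (0.12), S100A13 to RBM47 (0.08), S100A10 to TUBGCP3 (0.07), S100A9 to MYL3 (0.32) and S100A2 to GPC4 (0.23). The arrays form 4 groups, so likeness over them rests on few independent points and was not tested.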

How the data were processed

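For every probe set each array has a deposited log2 value; the submitters' processing notes name GCRMA, without version or settings. GCRMA corrects for background, equalises the arrays' distributions and summarises probes, so low values collect at a floor of 2.08. No further scaling was applied. Names came from GEO's platform annotation, with symbols updated by Entrez identifier. Of 22277 probe sets, 19070 had 1 symbol, 1043 several and 2164 none here. The brightest probe set stood for a gene.

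Tests used limma 3.58.1 in R 4.3.3 (lmFit on 4 group means, eBayes) over 7696 genes, with 4 residual degrees of freedom, Benjamini-Hochberg adjustment per comparison, and were tested on simulated data. Against a group with all arrays at or under log2 4, a fold is a bound set at 4. Alternatives changed the filter, normalization, variance model, probe set choice, floor, size of change, replicate block and arrays used.

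Members and lists were chosen with earlier results of these data known. Besides GATA6, the rule for named genes took all 10 members, other S100 genes tested, per list and line the 4 called genes with the smallest p, and the nearest pattern per member. Single marker genes were named after their values were seen. The number of arrays limits the precision.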

Additional observations from a re-analysis of the deposited data

Results flagged for a closer look

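The shRNA effect differed between the lines by the test of the difference itself for 8 S100 genes, as HUG1N effect minus Caco-2 effect on the log2 scale (limma adjusted p in parentheses). The difference was -2.51 for S100P (3.12e-05), -1.79 for S100A11 (2.48e-04), -0.97 for S100A14 (0.00132) and -0.79 for S100A13 (0.00255). It was -0.73 for S100A6 (0.00402), -0.52 for S100A4 (0.00874), -0.95 for S100A2 (0.0164) and -0.996 for S100A9 (0.0272). In the same comparison 44.9% of all tested genes were called, and the values of S100A2 in Caco-2 were all under log2 4. The HUG1N control values of S100A9 may be a background level. The HUG1N values of S100P and S100A6 were near the highest of the arrays, and the part of this in the differences was not tested.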

How the results depend on the processing

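With a 2-fold minimum besides the adjusted p, the S100 genes called were 4 in Caco-2, 0 in HUG1N by limma (where 7 had an unadjusted p under 0.05), 2 for the difference of effects and 6 between the controls. Leaving out 1 array gave 7 to 8 called in Caco-2, 4 to 7 in HUG1N, 6 to 8 for the difference and 9 between the controls. The counts were within 1.5 times of 7, 7, 8 and 9 under the other alternatives run, which for HUG1N ranged from 5 with no filter to 8 with median centring or a variance trend. Over all genes, leaving out Caco-2 control replicate 1 or 2 lowered the 2982 calls in Caco-2 to 1932 and 1838, and the 2-fold minimum left 742 in Caco-2, 903 in HUG1N, 1404 for the difference and 3534 between the controls. Testing every probe set singly called 4489 in Caco-2, 5941 in HUG1N, 5408 for the difference and 9686 between the controls, of 12702 probe sets.

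Of 572 refits of the 31 called member results, 550 kept the call and direction, 22 lost the call and 0 reversed, and the cause was not tested. Many refits, such as those that changed only the filter or the variance model, left the difference itself unchanged and could not reverse it. The losses were all of S100A2, S100A9 and S100A13 in HUG1N or of S100A2 and S100A9 in the difference of effects. With no filter, S100A2 (limma adjusted p = 0.0914) and S100A9 (limma adjusted p = 0.0950) were lost in HUG1N, and both were lost for the difference of effects. S100P was called in HUG1N with median centring (0.21, limma adjusted p = 0.0441) and with a variance trend (0.14, limma adjusted p = 0.0413). The labels give no pairing, and same-numbered arrays had deviations that correlated at -0.06 to 0.07 between groups. With the replicate number as a block, 7, 7, 8 and 9 members were called, and over all genes the calls numbered 2732 (Caco-2) and 3604 (HUG1N). The block changed no member's call; it did call GATA6 in HUG1N (-0.25, limma adjusted p = 0.0468), as did a variance trend (limma adjusted p = 0.0427). S100A8 and the Caco-2 levels of S100A2 are below what these arrays measured, and the HUG1N control level of S100A9 may be.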
